A study of Mus musculus with 6 samples.

Results

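The small nucleolar RNAs (snoRNAs) and small Cajal body RNAs (scaRNAs) listed in the deposited expression tables are described here. Members were all features whose gene name starts with *Snord*, *Snora* or *Scarna*, which gave 75 of the 48733 named genes. Of these, 53 were *Snord* names (box C/D snoRNAs), 16 were *Snora* names (box H/ACA snoRNAs) and 6 were *Scarna* names. RNA was sequenced from the inbred Collaborative Cross strain CC016/GeniUnc, as 3 libraries labelled bone (cortical bone of the femur from which the marrow had been spun out) and 3 labelled osteoblasts. The osteoblasts were grown from the adherent stromal cells of the marrow and held for 8 days in medium with dexamethasone (10 nM), beta-glycerophosphate (10 mM) and ascorbic acid (50 µg/ml). The labels name no genetic change in either group, the methods give 3 mice, and age and sex were not given in the sources used here. The labels do not tie a replicate number to a mouse, so p-values measure only the spread between these libraries, which may be technical.

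A snoRNA pairs with a target RNA and positions a protein enzyme on it. Box C/D RNAs bind fibrillarin, which adds a methyl group to the ribose of the paired base, and box H/ACA RNAs bind dyskerin, which turns uridine into pseudouridine. Most of them modify ribosomal RNA in the nucleolus, a few are needed to cut the ribosomal precursor, and scaRNAs do the same chemistry on the small nuclear RNAs of the spliceosome in Cajal bodies. In mammals most are cut out of the introns of host genes, and few have a promoter of their own. Cells that make many ribosomes, such as matrix-secreting osteoblasts and dividing marrow cells, rely on them.

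The values are FPKM, fragments scaled to transcript length and to all aligned fragments, and the short length of these RNAs raises them. In these libraries 10 read pairs on an RNA of 100 nucleotides (nt) would have given an FPKM between 4.43 and 7.37, and the same 10 pairs on an RNA of 2000 nt between 0.221 and 0.369. The rows of the members were 64 to 414 nt long with a median of 94 nt, and 16 of them were shorter than a 75 nt read. Mature snoRNAs are short and carry no poly(A) tail. The paper describes the libraries as covering RNA with and without such a tail, while the kit it names, TruSeq RNA v2, is one that usually selects for the tail, so the share of these RNAs that entered the libraries is not known. *Rn7s1*, *Rn7sk* and *Rmrp*, other short RNAs without such a tail, were at 88965 to 210059, 13042 to 93517 and 5112 to 16801 FPKM. These values are a large part of the FPKM on named genes used below. How the libraries selected RNA was not tested. Reads from longer precursors over the same bases cannot be told apart from those of the mature RNAs.

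Libraries are named by their deposited label, values under a label are given in the order of replicates 1, 2 and 3, and some libraries stand apart from others with the same label. *Hbb-bt*, a globin of red cells, was at 34838, 34268 and 48650 FPKM in those labelled bone replicate 3 and osteoblasts replicates 2 and 3, and between 3.43 and 7.05 in the others. Summed over their lists, the neutrophil markers (5 of 5 listed) were at 11455 to 14213 FPKM in the former and at 0.110 to 4.92 in the latter, and the muscle markers (2 of 3 listed) at 154 to 730 and at 0.0324 to 1.09. The 5 osteoblast markers listed of 6 summed to 1676 to 2404 FPKM in the former and to 2769 to 4530 in the latter, but did not all separate. *Ibsp* was at 43.1 to 91.3 FPKM in the former and at 986 to 1278 in the latter, and *Alpl* was also lower in the former. The collagen gene *Col1a1*, *Sp7* and *Runx2* overlapped. The 3 osteocyte markers listed of 4 summed to 45.4 to 51.4 FPKM in the former and to 55.3 to 133 in the latter, while *Sost*, the most specific of them, was at 15.8 to 22.7 FPKM in the former and at 0.0661 to 0.198 in the latter. Macrophage and osteoclast markers (4 of 4 listed) summed to 632 to 737 FPKM in the former and to 710 to 1570 in the latter, but went different ways. *C1qa* was at 173 to 241 FPKM in the former and at 575 to 1156 in the latter, and *Adgre1* was also lower in the former. *Acp5* was at 325 to 342 and at 14.9 to 111, and *Ctsk* overlapped. Markers of dividing cells (2 of 3 listed) summed to 38.3 to 63.6 FPKM in the former and to 6.70 to 16.95 in the latter. Features without a gene name took 71.5% of all FPKM in bone replicate 2 and 65.0% in osteoblasts replicate 1, against 27.4% to 30.7% in the others. Aligned depth lay between 2.03 and 3.39 Gb, or 13565295 to 22583778 read pairs. Whether labels were exchanged between libraries is not known, and each difference between labels below holds for the labels as deposited. The part of these features in the results below was not tested, and fewer cells of a type and less RNA per cell cannot be told apart in bulk RNA.

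Of the 75 members, 54 were above 0 FPKM in at least 1 library, 36 were above 0 in all 6, and 21 were listed at 0 in all 6. The number above 0 was 47, 44 and 50 under bone and 42, 48 and 48 under osteoblasts. At 1 FPKM or more there were 33, 27 and 44 members under bone and 31, 41 and 45 under osteoblasts. The fewest were found in bone replicate 2 and osteoblasts replicate 1 by either measure. Fewer members reached the coverage that 3 read pairs would give on their length, between 19 and 37 per library. For an RNA of 100 nt that floor corresponded to an FPKM between 1.33 and 2.21, so a value near 1 FPKM rests on a few read pairs. These limits cover counting error only.

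The 21 members at 0 included all 17 listed *Snord116* copies (*Snord116l1* to *Snord116l17*), box C/D RNAs of the imprinted Prader-Willi region that are best known from neurons. Their host transcript *Snhg14* surrounded 16 of them on the same strand and was itself at a mean of 1.46 FPKM over the 6 libraries. The other members at 0 were *Snora35*, *Snord61*, *Snord42a* and *Snord4a*. No row named for the imprinted families *Snord113*, *Snord114* or *Snord115* was found, and these were not analysed here. With no read counts in the files, a listed 0 says only that no fragment was assigned at these depths.

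Summed over the 75 members, FPKM came to 1557, 772 and 2761 under bone. It came to 1507, 2622 and 2985 under osteoblasts. Bone replicate 2 was lowest, bone replicate 3 and osteoblasts replicates 2 and 3 were high, and the labels overlapped. The mean was 1697 ± 1002 under bone and 2371 ± 770 under osteoblasts (SD, n = 3), a difference of 0.61 on the log2 scale (osteoblasts minus bone, two-sided exact permutation test p = 0.50, where 3 libraries against 3 cannot give a p below 0.1). Without bone replicate 2 that difference was 0.13, and without bone replicate 3 it was 1.05.

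**Figure D1:**
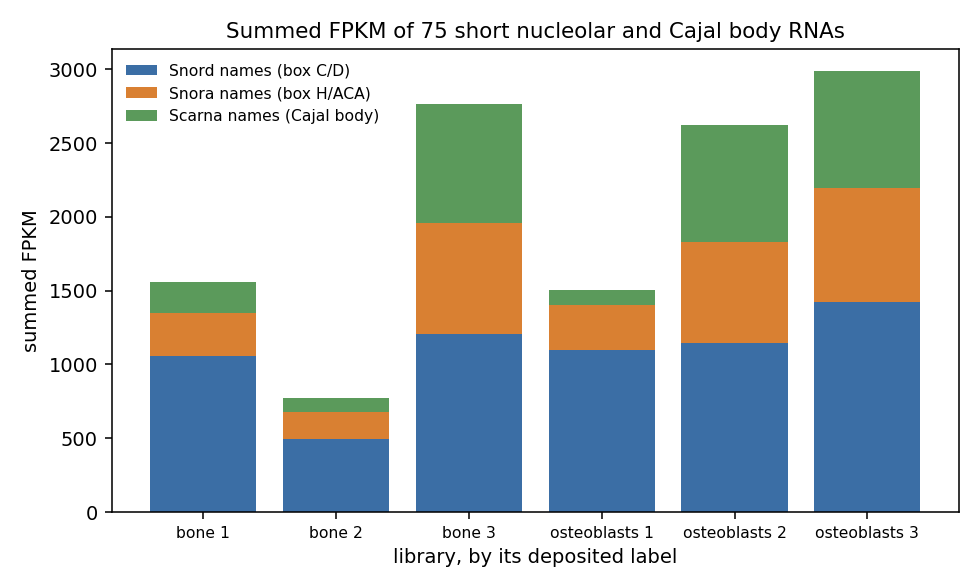
Summed FPKM of the members in each library, with the *Snord*, *Snora* and *Scarna* names stacked. The sums run from 772 in bone replicate 2 to 2985 in osteoblasts replicate 3, and the *Scarna* part is 787 to 802 FPKM in the 3 tallest bars and 94.6 to 208 in the others.

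As a share of the FPKM on named genes, the members took 0.262%, 0.217% and 0.315% under bone. They took 0.386%, 0.305% and 0.362% under osteoblasts. The shares lay closer together than the sums, and osteoblasts replicate 2 fell below bone replicate 3, so the labels overlapped here too. The mean share was 0.265% ± 0.0493 under bone and 0.351% ± 0.0420 under osteoblasts (SD, n = 3), with a log2 difference of 0.42 (two-sided exact permutation test p = 0.20). The order of the libraries changed with the denominator: osteoblasts replicate 1 was highest by named FPKM, but with all features in the denominator its share was 0.135%, below the 0.181% of bone replicate 1.

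The same reads can be followed without the division by length. Coverage times length gave the members 0.0341%, 0.0161% and 0.0613% of all aligned bases under bone and 0.0315%, 0.0602% and 0.0655% under osteoblasts. This is the worth of 2363 to 13589 read pairs per library. By this measure the libraries kept the high and low places they had in summed FPKM, and the labels differed by 0.63 on the log2 scale (two-sided exact permutation test p = 0.60, n = 3 per label). Without bone replicate 2 the difference was 0.12, without bone replicate 3 it was 1.09 and without osteoblasts replicate 1 it was 0.96.

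The box C/D class held the largest part of the FPKM in every library, and that part rested mainly on *Snord17*. *Snord* names summed to 1054, 494 and 1206 FPKM under bone and to 1099, 1145 and 1426 under osteoblasts. *Snora* names summed to 295, 183 and 754 FPKM under bone and to 301, 687 and 772 under osteoblasts. *Scarna* names summed to 208, 94.6 and 802 FPKM under bone and to 107, 791 and 787 under osteoblasts. The *Scarna* names held 26.4% to 30.2% of the members' FPKM in bone replicate 3 and osteoblasts replicates 2 and 3, and 7.09% to 13.3% in the others.

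The ratio of summed *Snord* to summed *Snora* FPKM does not depend on library scaling. It stood at 3.57, 2.70 and 1.60 under bone and at 3.65, 1.67 and 1.85 under osteoblasts. Both labels held a high and a low value, and the log2 difference between them was -0.15 (two-sided exact permutation test p = 1.0, n = 3 per label). The sign was not stable: without the libraries with hemoglobin, bone replicate 3 and osteoblasts replicates 2 and 3, it was 0.24, and in those libraries alone it was 0.13. With the single highest RNA of each class left out (*Snord17* and *Snora78*), the ratio was 1.18, 1.30 and 1.33 under bone and 1.32, 1.22 and 1.18 under osteoblasts. The range of 1.60 to 3.65 thus narrowed to 1.18 to 1.33 over the same 6 libraries. By aligned bases, all members included, the ratio was 2.37 to 5.59.

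**Figure D2:**
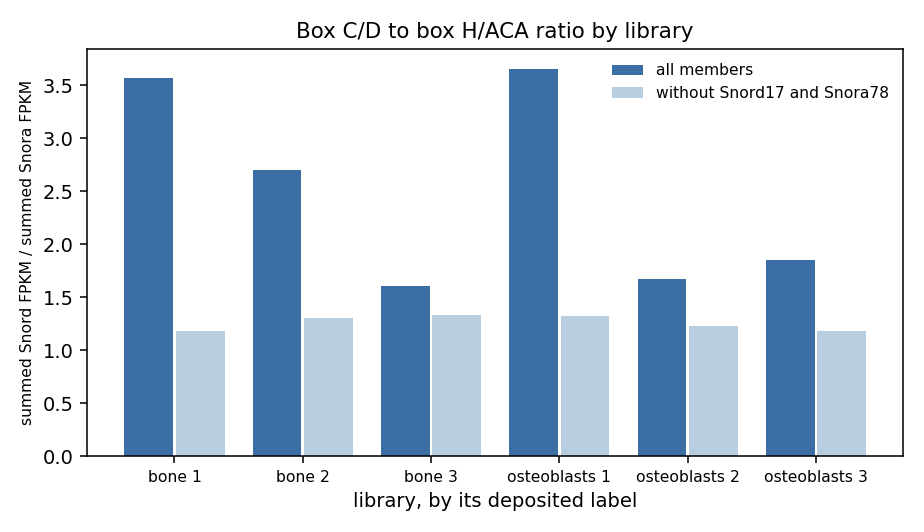
Summed *Snord* FPKM divided by summed *Snora* FPKM in each library, with all members (dark bars) and without *Snord17* and *Snora78* (light bars). The dark bars run from 1.60 to 3.65 and the light bars from 1.18 to 1.33.

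Among the box C/D RNAs, *Snord17* (Chr. 2, minus strand, 144265979 to 144266216, GRCm38) was the highest member. It lies within *Snx5*, a sorting nexin gene, and guides methylation of 28S ribosomal RNA. It was at 906, 390 and 843 FPKM under bone and at 886, 855 and 1043 under osteoblasts. All libraries but bone replicate 2 were within 843 to 1043 FPKM. The difference in log2(FPKM + 1), osteoblasts minus bone, was 0.47 ± 0.63 (SE), 0.08 without bone replicate 2 and 0.03 with quantile normalization. *Snord17* alone held 30.5% to 58.8% of the members' FPKM and 69.9% to 86.0% of that of the *Snord* names.

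*Snord15a* (Chr. 7, 99482785 to 99482932) was next in this class, and it too guides methylation of 28S ribosomal RNA. It was at 61.4, 57.2 and 106 FPKM under bone and at 121, 81.9 and 103 under osteoblasts. Its highest library was 2.11 times its lowest, the narrowest range of the 14 members with a mean FPKM of at least 10. The lowest 2 libraries were labelled bone, and bone replicate 3 lay above osteoblasts replicates 2 and 3.

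*Snord118* (U8) and *Snord13* (U13) have genes of their own and no host, and neither is a usual methylation guide. U8 is needed to mature the 28S and 5.8S ribosomal RNAs, and U13 pairs with 18S ribosomal RNA and directs its acetylation. *Snord118* (Chr. 11, 69073427 to 69073561) was at 30.3, 11.7 and 99.0 FPKM under bone and at 42.4, 54.5 and 98.9 under osteoblasts, an estimated log2 difference of 0.87 ± 0.76 (SE) that was 0.15 without bone replicate 2 and 1.64 without bone replicate 3. *Snord13* (Chr. 8, 31149864 to 31149967) was at 10.3, 2.77 and 10.1 FPKM under bone and at 9.38, 13.9 and 24.0 under osteoblasts. Both were lowest in bone replicate 2, and for both the labels overlapped.

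The other *Snord* names among the 10 highest had means of 5.75 to 19.9 FPKM. *Snord104* (Chr. 11, 70 nt) was at 8.41, 4.10 and 30.7 FPKM under bone and at 6.35, 31.5 and 38.4 under osteoblasts. *Snord83b*, in an intron of the ribosomal protein gene *Rpl3*, was at 4.55, 7.15 and 17.9 FPKM under bone and at 7.13, 13.9 and 19.1 under osteoblasts. Its neighbour in *Rpl3*, *Snord43*, had a mean of 5.75 FPKM. *Snord32a* and *Snord34* share the host *Rpl13a*, whose snoRNAs are known for a role in lipid and oxidative stress, and had means of 9.55 and 5.77 FPKM. *Snord89* had a mean of 8.25 FPKM. In *Snord104*, *Snord83b*, *Snord32a*, *Snord34* and *Snord43* the highest 3 values were those of bone replicate 3 and osteoblasts replicates 2 and 3.

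Among the box H/ACA RNAs, *Snora78* (Chr. 17, minus strand, 24719676 to 24719803) was highest. It was at 170, 103 and 482 FPKM under bone and at 140, 449 and 449 under osteoblasts. Bone replicate 3 was the highest library and bone replicate 2 the lowest, and the log2 difference was 0.58 ± 0.77 (SE), 0.09 without bone replicate 2 and 1.19 without bone replicate 3. *Snora23* (Chr. 7, 110046364 to 110046547), inside the importin gene *Ipo7*, did not follow that order. It was at 54.6, 39.4 and 57.2 FPKM under bone and at 79.9, 35.7 and 55.8 under osteoblasts, highest in osteoblasts replicate 1 and lowest in osteoblasts replicate 2. Its log2 difference was 0.12 ± 0.51 (SE), and it fell below 0 when scaled to named features (-0.06), without bone replicate 2 (-0.04) or without osteoblasts replicate 1 (-0.15).

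*Snora57* (Chr. 19, minus strand, 8888538 to 8888685, 148 nt) was at 35.2, 17.2 and 107 FPKM under bone and at 32.6, 132 and 149 under osteoblasts. It has no host on its own strand, and its first 53 nt fall in the promoter window of the gene *1810009A15Rik*, which runs the other way. They are shown as the part of this abundant member that the RefSeq tables hold. These bases (chr19:8888633-8888685, minus strand, RefSeq GRCm38.p6 promoter table, written 5′ to 3′ in lower case with no part marked) are as follows.
Snora57, first bases: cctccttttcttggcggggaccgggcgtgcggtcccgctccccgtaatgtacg

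*Snora21*, in the ribosomal protein gene *Rpl23*, was at 13.0, 9.81 and 40.9 FPKM under bone and at 20.9, 35.3 and 42.8 under osteoblasts. The others among the 10 highest *Snora* names had means of 3.06 to 8.69 FPKM: *Snora31* in *Tpt1* (8.69), *Snora16a* in *Snhg12* (8.01), *Snora62* in *Rpsa* (6.79), *Snora34* in *Kansl2* (6.33), *Snora30* in *Srcap* (3.58) and *Snora41* in *Eef1b2* (3.06). Of these, *Snora34* was lowest in osteoblasts replicate 2 at 0.943 FPKM and highest in osteoblasts replicate 3 at 13.1, so libraries with 1 label spanned its whole range.

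Among the scaRNAs, *Scarna2* (Chr. 3, minus strand, 108554338 to 108554751) guides methylation of U2 small nuclear RNA and has a gene of its own. It was at 105, 38.8 and 452 FPKM under bone and at 43.9, 498 and 449 under osteoblasts. Bone replicate 3 and osteoblasts replicates 2 and 3 were high and the others low, and the log2 difference between labels was 0.80 ± 1.13 (SE), -0.02 without bone replicate 2 and 1.93 without osteoblasts replicate 1. Divided by *Snord17* in the same library, *Scarna2* was 0.116, 0.0996 and 0.536 under bone and 0.0495, 0.582 and 0.430 under osteoblasts, so the split was also present within libraries, with no scaling between them. *Scarna6* (Chr. 1, 87784556 to 87784820), a composite RNA with both box types, was at 77.3, 46.7 and 264 FPKM under bone and at 46.5, 217 and 215 under osteoblasts, with a log2 difference of 0.39 ± 0.84 (SE) that was -0.14 without bone replicate 2.

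The other scaRNAs were lower. *Scarna17*, which guides methylation of U12 small nuclear RNA, was at 4.85, 1.38 and 22.1 FPKM under bone and at 1.95, 19.1 and 28.5 under osteoblasts. By FPKM its highest library was 20.7 times its lowest, the widest range of the 14 members with a mean FPKM of at least 10. Its values in bone replicate 2 and osteoblasts replicate 1 were the worth of 1.6 and 2.09 read pairs, under the floor of 3, so this range is uncertain. *Scarna9*, a guide for U2 within *Cep295*, was at 4.14, 2.27 and 10.4 FPKM under bone and at 0.581, 3.07 and 23.3 under osteoblasts. *Scarna8*, a guide for pseudouridine in U2, had a mean of 1.44 FPKM and was at 0 in bone replicate 2 and osteoblasts replicate 1.

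**Figure D3:**
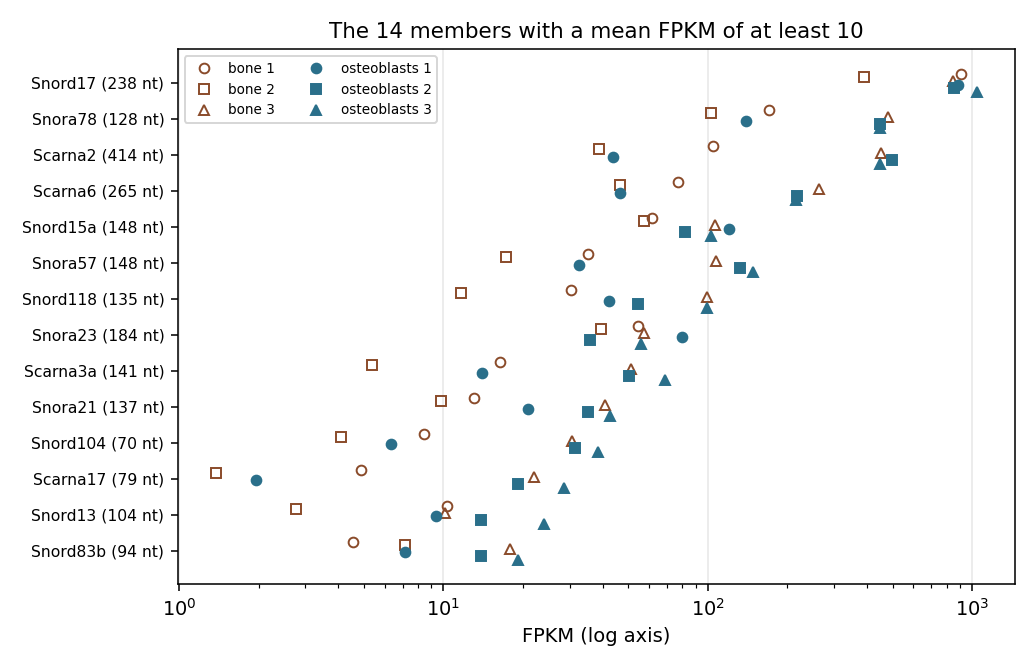
FPKM (log axis) of the 14 members with a mean FPKM of at least 10, 1 row per RNA with the length of its row, open brown symbols for bone and filled blue symbols for osteoblasts, with the replicate given by shape. In *Snord17*, *Snord15a* and *Snora23* the highest library is 2.11 to 2.67 times the lowest, whereas in *Scarna2*, *Scarna3a* and *Scarna17* it is 12.8 to 20.7 times the lowest. The lowest value of *Scarna17* is the worth of 1.6 read pairs and that of *Scarna3a* of 5.17.

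*Scarna3a* (Chr. 1, plus strand, 159340283 to 159340423) was at 16.3, 5.34 and 51.2 FPKM under bone and at 14.0, 50.2 and 68.7 under osteoblasts. Its row, and those of *Snora36b* and *Snora34*, contain a microRNA hairpin that has no row of its own, so fragments of the guide RNA and of the microRNA precursor cannot be told apart in their values. The hairpins of *Mir1843b* (chr1:159340358-159340423) and *Mir664* (chr1:185242975-185243043) are shown because they hold the 3′ end of the guide RNA, where a box H/ACA RNA usually has the letters ACA followed by 3 bases. In the first, 3 bases follow ACA up to the end of the deposited *Scarna3a* row, and 4 up to its end in RefSeq. In the second, 8 bases follow it up to the end of the deposited *Snora36b* row, and 3 up to its end in RefSeq. Of the 997 different mouse hairpins in the RefSeq table, 1.60% have ACA 3 bases before their own 3′ end, which *Mir1843b* does and *Mir664* does not. The sequences are from RefSeq (GRCm38.p6, plus strand), with the ACA that was counted from in capitals. Other ACA stretches stay in lower case, among them a further copy in *Mir664* that overlaps the marked one.
Mir1843b hairpin in Scarna3a: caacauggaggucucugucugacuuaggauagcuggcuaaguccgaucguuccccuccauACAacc
Mir664 hairpin in Snora36b: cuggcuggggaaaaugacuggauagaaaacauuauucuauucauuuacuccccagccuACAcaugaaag

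The mature microRNAs cut from these hairpins, and from *Mir1291* within *Snora34* (chr15:98519762-98519878, minus strand), are printed next with the seed (bases 2 to 8, which pair with target messenger RNAs) in capitals. They show which small RNA shares its bases with which guide, and no seed occurs in more than 1 of them. *Snora36b* was at 0 FPKM in 4 libraries, 0.254 in bone replicate 3 and 1.28 in osteoblasts replicate 3, whereas *Snora34* was above 0 in all 6.
mmu-miR-1843b-5p: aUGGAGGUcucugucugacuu
mmu-miR-1843b-3p: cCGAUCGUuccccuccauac
mmu-miR-664-5p: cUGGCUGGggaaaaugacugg
mmu-miR-664-3p: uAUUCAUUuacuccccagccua
mmu-miR-1291: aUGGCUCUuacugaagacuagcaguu

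Level went with row length among the members, in the direction opposite to the inflation of FPKM by short length. Of the 46 members under 100 nt, 3 had a mean FPKM of at least 10, and the 46 together held 4.62% of the members' FPKM. Of the 29 members of 100 nt or more, 11 had a mean FPKM of at least 10, and the 29 held 95.4%. *Snora78* had the shortest row of the 10 highest members. Across the 54 members above 0, Spearman's rho between row length and mean FPKM was 0.450, given as a description over genes that share the same 6 libraries. None of the 16 *Snora* rows but 44 of the 53 *Snord* rows were under 100 nt, so the classes differ in length. Within a class rho was 0.368 for the *Snord*, 0.184 for the *Snora* and 0.829 for the 6 *Scarna* names. All lengths here are those of the deposited rows, and RefSeq gives other lengths for many members. The largest disagreement was for *Scarna2*, with 414 nt by its row and 61 nt in RefSeq. Whether level goes with RefSeq length was not tested. The median of the mean FPKM over members above 0 was 6.33 for *Snora* names and 1.61 for *Snord* names.

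**Figure D4:**
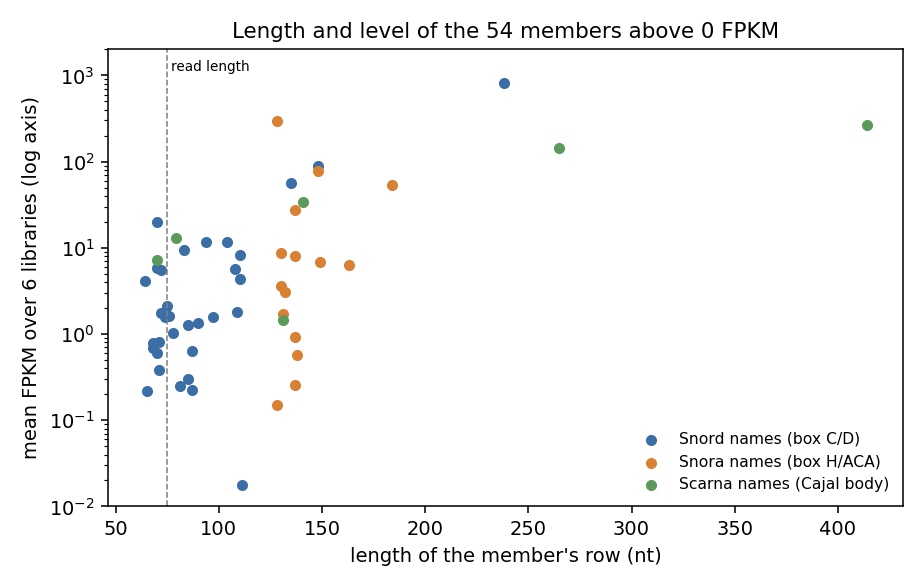
Mean FPKM over the 6 libraries (log axis) against the length of the row in nt for the 54 members above 0, coloured by class, with a dashed line at the read length of 75 nt. The members under 100 nt reach at most 19.9 FPKM, and *Snord17*, *Snora78*, *Scarna2* and *Scarna6* are the points above 100 FPKM.

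Ranked by share of aligned bases in place of FPKM, the same 10 members led. *Snord17* held 43.6% of the members' bases and *Scarna2* 24.4%, followed by *Scarna6* (8.55%) and *Snora78* (8.54%). The worth in read pairs was 1361 to 4596 per library for *Snord17* and 236 to 4652 for *Scarna2*, but 19.7 to 109 for the last of the 10, *Snora21*.

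Named host genes on the same strand surrounded 64 of the 75 members. There were 43 such hosts, and 10 members lay in genes of ribosomal proteins. Of the 14 members with a mean FPKM of at least 10, 8 were among the 11 members with no named host on their strand. The member was above its host in all 6 libraries in 4 cases, *Snord17* in *Snx5*, *Snora78* in the long noncoding RNA *Snhg9*, *Scarna6* in the autophagy gene *Atg16l1*, and *Snora23* in *Ipo7*. *Snx5* was at 62.5, 38.4 and 15.1 FPKM under bone and at 33.6, 20.0 and 25.6 under osteoblasts, so *Snord17* and its host did not share an order of libraries: bone replicate 3 was the lowest of the 6 for *Snx5* but not for *Snord17*. *Snhg9* was at 2.61, 1.91 and 8.83 FPKM under bone and at 0.792, 8.34 and 6.49 under osteoblasts, high in the same libraries as *Snora78*. Across the 44 hosted members above 0, Spearman's rho between the mean FPKM of member and host was 0.376, as a description.

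Tested one by one, no member passed the test between the labels. The limma fit on log2(FPKM + 1) took the 12112 genes whose FPKM averaged 1 or more, and with them 39 of the 75 members. *Snord53*, at a mean of 1.02 FPKM, was the last member inside this filter and *Snora2b*, at 0.927, the first outside it. None of the 39 had a limma adjusted p under 0.05, and none had an unadjusted p under 0.05, the lowest being 0.102. Among all genes 0% were called (0 of 12112), and 17 had an unadjusted p under 0.05. No member had all of its osteoblasts values above, or all below, its bone values, against 0.479% and 0.438% of all genes tested.

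The estimated differences were nonetheless mostly above 0. They ran from -0.11 to 1.14 on the log2(FPKM + 1) scale, 34 of 39 were positive and their median was 0.57, whereas over all genes tested 62.6% were positive with a median of 0.12. By class the median was 0.51 for 22 *Snord*, 0.58 for 11 *Snora* and 0.71 for 6 *Scarna* names. The 5 members below 0 were *Snord53*, *Snord66*, *Snora34*, *Scarna9* and *Snord23*, named after their values were seen. The members share the same 6 libraries and 26 of the 39 had their lowest value in bone replicate 2, as had 54.2% of all genes tested. With bone replicate 2 left out, 25 of 39 were positive and the median fell to 0.09, beside -0.13 for all genes. Without one of the other libraries the median was 0.27 to 1.05, the lowest without osteoblasts replicate 3 and the highest without bone replicate 3. Scaled to the sum of named features, 33 of 38 members were positive with a median of 0.40, beside 45.5% and -0.04 for all genes. The median SD within a label on this scale was 1.02 for the members and 0.59 for all genes tested.

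**Figure D5:**
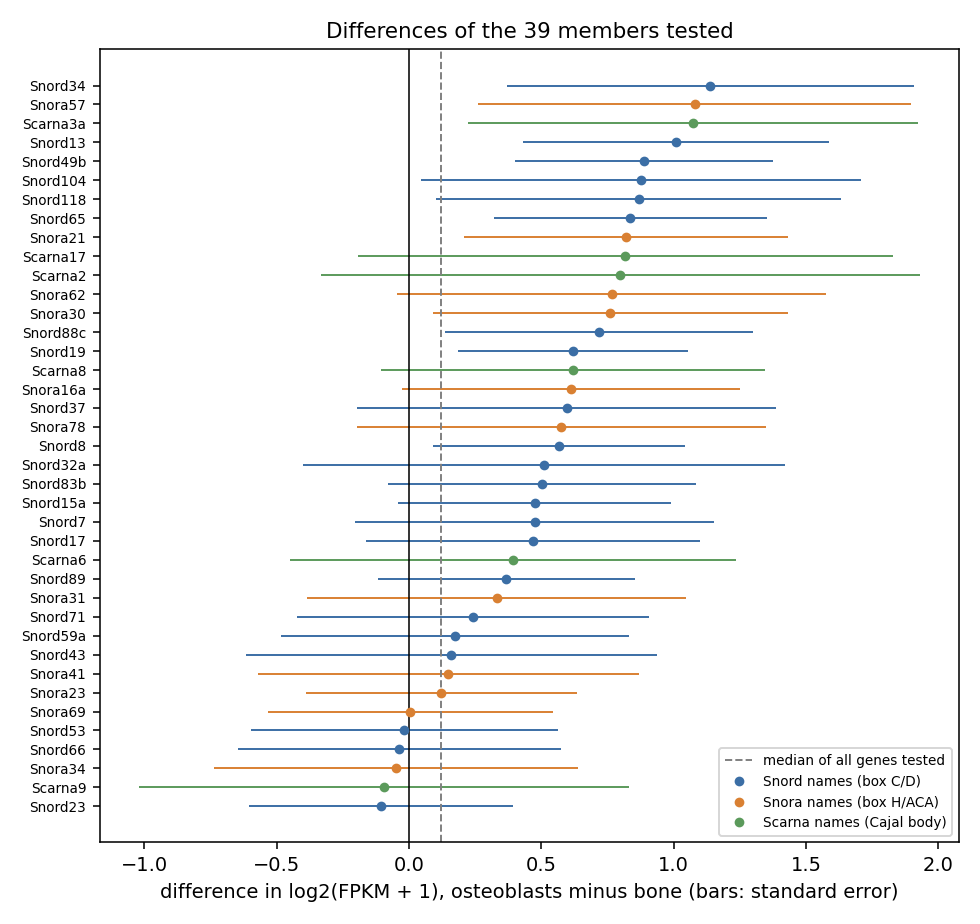
Difference in log2(FPKM + 1), osteoblasts minus bone, for the 39 members tested, with the standard error from limma as bars and the class as colour. The points run from -0.11 to 1.14 around a median of 0.57, the dashed line marks the median of all genes tested (0.12), and no difference passed the threshold.

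Within a library the members kept much the same ranking. Spearman's rho between the levels of the 39 tested members in pairs of libraries was 0.758 to 0.934. The highest value was between bone replicate 3 and osteoblasts replicate 3, and the lowest was between osteoblasts replicates 1 and 2. These are descriptions over genes and carry no test.

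The proteins that work with these RNAs did not pass the test either. Of the box C/D core, *Nop56*, *Nop58* and *Snu13* were tested (*Fbl*, which encodes fibrillarin, had no named row), with limma differences of 0.69, -0.12 and 0.29. The *Nop56* row holds *Snord57*, which has no row of its own, and its FPKM was 2.12 to 4.59 times the value its coverage gives. The 4 genes of the box H/ACA core had differences from 0.16 for *Nop10* to 0.96 for *Gar1*, with 0.59 for *Dkc1*, the dyskerin gene, and 0.34 for *Nhp2*, and 3 of 4 were positive when scaled to named features and 2 of 4 without bone replicate 2. *Gar1* was at 1.90, 0.298 and 3.69 FPKM under bone and at 2.99, 5.38 and 4.07 under osteoblasts, overlapping between labels. None of these 7 genes was called by limma, nor any of the 10 assembly factors (median 0.19, 7 positive, but 3 positive and a median of -0.15 without bone replicate 2, from -0.48 for *Znhit6* to 0.58 for the helicase gene *Ruvbl1*). *Coil*, *Wrap53* and *Smn1*, which encode proteins of the Cajal body, had differences of 0.20, 0.13 and 0.48, also without a call, and 1 of these 3 was positive without bone replicate 2. *Wrap53*, whose product brings scaRNAs to the Cajal body, was at 5.44, 2.37 and 13.7 FPKM under bone and at 2.27, 10.4 and 10.1 under osteoblasts.

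Of the long noncoding host genes, 15 were tested and none was called (12 positive with a median of 0.43, 8 with a median of 0.04 without bone replicate 2). The rows of *Snhg4*, *Snhg1*, *Snhg12*, *Zfas1*, *Snhg8* and *Snhg7* hold snoRNAs with no row of their own. In that order, their FPKM was a median of 105, 20.0, 7.80, 4.24, 3.09 and 1.09 times the value their coverage gives. How much of it belongs to the RNAs inside was not tested. *Snhg18*, host of *Snord123*, was the 1 gene of the 15 tested whose labels did not overlap, beside 0.438% of all genes tested with osteoblasts lower. It was at 10.6, 6.77 and 6.58 FPKM under bone and at 5.33, 3.57 and 4.09 under osteoblasts, with a limma difference of -0.74 ± 0.41 (SE, adjusted p = 0.999). *Snord123* itself was at 0.102, 0.320 and 2.42 FPKM under bone and at 0.145, 0.341 and 1.47 under osteoblasts. Of 16 other short RNAs tested, all had a difference of 0.00 or more (median 0.47) and none was called, but 12 of 17 were positive when scaled to named features, and without bone replicate 2 only 6 of 16 were, with a median of -0.03. They include the U3 snoRNAs, box C/D RNAs of ribosomal processing that the name rule leaves out: *Rnu3b1* was at 7164, 2610 and 12122 FPKM under bone and at 5068, 9210 and 10506 under osteoblasts, above every member in every library. *Terc*, the telomerase RNA, which also has an H/ACA domain, was at 1.71, 0.442 and 46.5 FPKM under bone and at 0.526, 52.0 and 37.8 under osteoblasts, high and low in the same libraries as *Scarna2*. Without osteoblasts replicate 1 it was the one gene of these lists that limma called, among 360 of 12362 genes (2.91%). Over the lists of these other genes the lowest unadjusted limma p was 0.0869.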

How the data were processed

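RNA of 3 libraries labelled bone and 3 labelled osteoblasts was sequenced with 75 bp paired-end reads. Per the submitters' processing notes the authors used HISAT2 2.0.5, SAMtools 1.7 and StringTie 1.3.3 with GRCm38. The authors deposited for each feature its coverage (mean reads per base), its FPKM (scaled to all aligned reads) and its TPM (FPKM rescaled to a fixed sum within the library), and no counts. Rows were selected by name and summed by name. Depth in aligned bases is the commonest quotient of a feature's coverage by its FPKM, taken where coverage exceeded 1. For 4 members, whose rows hold more than 1 transcript, coverage times length is approximate.

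Groups follow the deposited labels. Library sums were compared with two-sided exact permutation tests on the log2 scale, and genes with limma 3.58.1 in R 4.3.3 (lmFit, eBayes with a trend, log2(FPKM + 1), mean FPKM of at least 1, Benjamini-Hochberg, threshold 0.05). Fold changes of low genes are understated on this scale. The fit was also run on simulated data with a smaller SD and larger changes than those of the members. That run does not show what the fit can find here. Python 3.11.15, pandas 2.3.3, numpy 2.4.6, scipy 1.17.1 and matplotlib 3.10.9 did the rest. The members and the lists of other genes were chosen with earlier results of these data known. Named members are the 10 highest *Snord*, 10 highest *Snora* and 5 highest *Scarna* by mean FPKM, the 10 with most aligned bases, up to 10 past the limma threshold (there were none), the *Snord113* to *Snord116* families, and the widest and narrowest range among members of mean FPKM 10 or more. Others are named for a host, a microRNA or a listed 0. Alternatives were another pseudocount, filter, unit, scaling or denominator, fewer members, a replicate block, and libraries left out. RefSeq GRCm38.p6 lists 142 such genes. All 75 members matched it by name, though not all in length, and the other 67 have no row of their own and are not among the members.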

Additional observations from a re-analysis of the deposited data

How the results depend on the processing

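Members called by limma stayed at 0 under all 16 alternatives. The member share of named FPKM, the summed FPKM and the share of aligned bases kept their sign under all 14, 14 and 12 alternatives. From 0.42, 0.61 and 0.63 they came to 0.08, 0.02 and 0.04 in the libraries with hemoglobin alone. Without those libraries they came to 0.70, 0.46 and 0.42. Either subset leaves 1 library under 1 of the labels. Leaving out each library in turn, the log2 differences of these measures ran from 0.28 to 0.55, 0.13 to 1.05 and 0.12 to 1.09. The C/D to H/ACA log2 ratio, -0.15 as reported, turned to 0.24 without the libraries with hemoglobin, to 0.13 in those alone and to 0.10 with the median of tested members, and ran from -0.50 to 0.11 with each library left out. The number of members with labels not overlapping, 0 as reported, became 1 with a mean FPKM of at least 0.1, with no filter (*Snord87*) or with quantile normalization, 3 when scaled to named features, 9 without both libraries with most FPKM on unnamed features, and 0 to 10 with each library left out (10 without bone replicate 3, 9 without osteoblasts replicate 1). All of these were higher under osteoblasts. Of all genes, 0.786% were higher and 0.751% lower with a mean FPKM of at least 0.1. With no filter these shares were 0.867% and 0.805%, and with quantile normalization 1.52% and 1.35%. They were 2.17% and 0.342% when scaled, and 19.4% and 12.0% without both libraries. They were 4.10% and 7.72% without bone replicate 3, and 18.9% and 5.36% without osteoblasts replicate 1. Without bone replicate 1 (1 member) they were 7.58% and 0.421%. The members tested were 53 with the lower filter, 54 with none and 42 without both libraries. They were 40 without bone replicate 2, 37 without osteoblasts replicate 3 and 38 or 39 otherwise. Genes of the other lists called, 0 as reported, were 0 to 1 with each library left out (*Terc*, without osteoblasts replicate 1). *Snora23* turned to -0.06 when scaled to named features, to -0.32 without both libraries with most unnamed FPKM, to -0.04 without bone replicate 2 and to -0.15 without osteoblasts replicate 1. With each library left out *Scarna2* ran from -0.02 to 1.93, *Scarna6* from -0.14 to 1.12 (both lowest without bone replicate 2) *Snora23* from -0.15 to 0.42, *Snord17* from 0.08 to 0.69, *Snora78* from 0.09 to 1.19 and *Snord118* from 0.15 to 1.64. The cause was not tested. The median number of members detected was 37.0 at 1 FPKM, 47.0 at 0.1 FPKM and 14.5 at 10 FPKM. Depth limits values near 1 FPKM to a few read pairs.

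Same-numbered libraries correlated in their deviations at 0.841, -0.747 and 0.830, so the numbers were not taken to pair the samples. With the replicate block limma called 49 of 12112 genes and 0 members, with 1 member at an unadjusted p under 0.05. The paired log2 differences were 0.42 for the share of named FPKM (exact sign-flip permutation p = 0.25, the smallest that 3 pairs allow), 0.61 for the summed FPKM (exact p = 0.50), -0.15 for the C/D to H/ACA ratio (exact p = 1.0) and 0.63 for the share of aligned bases (exact p = 0.75). Scaling to named features moved the median of all genes from 0.12 to -0.04 and that of the members from 0.57 to 0.40. Without bone replicate 3, 12 of 38 members reached an unadjusted limma p under 0.05, as did 11.9% of all genes, and without osteoblasts replicate 1, 12 of 39 and 12.7%.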

Other observations

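For further snoRNAs and scaRNAs, which have no row of their own, only the rows that surround them can be described. Of the 67 RefSeq names with no row of their own, 62 lie inside a named feature and 5 inside unnamed features alone. A row with 1 transcript has an FPKM that follows from its coverage and the depth, and a row with several transcripts of unlike length can have more. The excess, FPKM over the value its coverage gives, had a median of 3.29 over the 48 surrounding rows with a coverage above 1 in all 6 libraries, and of 1.66 over all 8957 such named rows. It was 10 or more in 8 of the 48 rows (16.7%) and in 2.15% of all. The surrounding rows and all named rows were not matched for the number or length of their transcripts.

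The row of *Snhg4*, which holds *Snora74a*, had the largest excess of the 48, between 84.9 and 128. Its FPKM was 622, 251 and 1247 under bone and 350, 1105 and 1228 under osteoblasts, at a coverage of 6.50 to 30.6. *Ptcd3*, which holds *Snord94*, followed with 20.7 to 38.6. The row of *Ncapd2*, a condensin gene that holds *Scarna10*, had an excess of 15.7 to 19.6 and was at 388, 208 and 2837 FPKM under bone and at 211, 2231 and 2281 under osteoblasts, high in the same libraries as *Scarna2*. *Rcc1*, which holds *Snora73a* and *Snora73b*, was at 1261, 465 and 5822 FPKM under bone and at 375, 3495 and 2795 under osteoblasts, with an excess of 12.1 to 20.1. How much of these values belongs to the RNA inside was not tested.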
